A study of Mus musculus with 18 samples.

Results

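Meiotic DNA breaks were compared between the infertile male hybrid of the PWD and C57BL/6 (B6) mouse strains and the male hybrid of the opposite cross. The infertile map came from (PWDxB6)F1 testis, with a PWD mother and a B6 father and the Prdm9 genotype PWD/B6. The reciprocal map came from (B6xPWD)F1 testis, with a B6 mother and a PWD father and the genotype B6/PWD, and the header of the matching H3K4me3 table calls this mouse semi-fertile. On the autosomes both hybrids carry 1 genome of each strain and the same Prdm9 alleles. Sons of these crosses differ in which parent gave each autosome, in the X and Y chromosomes and in the mitochondria, and DMC1 binding cannot tell these apart. Both maps are DMC1 ChIP-seq hotspot lists from whole testis of males about 10 weeks old, 1 library each, and they are 2 of the 18 samples of the series. All hotspots on the 19 autosomes were taken, 23554 in the infertile map and 17516 in the reciprocal map. Centres of the maps were joined when each was the nearest to the other and they lay within 1000 bp, which gave 16995 pairs. The tables hold positions in DNA, so the tissue could not be checked against marker genes.

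PRDM9 is a zinc-finger histone methyltransferase that binds DNA motifs in meiosis and places H3K4me3, after which SPO11 cuts the DNA nearby. DMC1 coats the single-stranded DNA of the resected break and searches the homologous chromosome for a repair template, so its signal reflects both how often a site breaks and how long the break waits for repair. Each PRDM9 allele wears away its own motifs in the strain where it has acted. The PWD allele therefore tends to find better motifs on the B6 chromosome of a hybrid, and the B6 allele on the PWD chromosome. Where PRDM9 is absent or fails to act, breaks are known in mice to move to other H3K4me3 sites such as gene promoters.

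Each hotspot has a pair of deposited values that were compared. Heat is the authors' relative DMC1 signal, and the B6 share is the fraction of signal from the B6 chromosome, 0 for a break mapped on the PWD chromosome alone and 1 on the B6 chromosome alone. The authors also gave each hotspot an allele of origin, here called PWD origin or B6 origin. No test between the crosses was possible with 1 library each. Intervals below are 95% intervals over hotspots, and they cover the sampling of sites and not the variation between mice.

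Sequences of 5 sites show the kinds of place the comparison turned on, each as 150 bases of the plus strand of GRCm38, the B6 reference, around the infertile or only centre. The first is the hottest pair, in an intron of Sorcs1 (chr19:50170194-50170343). The second is the site 604468 bp from the 5′ end of Snrpn (chr7:60744612-60744761), where the B6 share differed most. The third is in an intron of Snrpn (chr7:60133557-60133706), which had the lowest heat ratio, infertile over reciprocal, among pairs above the median of mean log2 heat. In these 3, capitals mark any of the 10 8-base words most enriched at hotspot centres of the B6/B6 map, re-analysed from other submitters, or of the PWD/PWD map. The last sites lie at the starts of Gpn1 (chr5:31495034-31495183) and Rrm2 (chr12:24708415-24708564), the hottest found near a transcription start in the infertile map alone, and capitals there mark the CG pairs of promoter DNA.
Sorcs1 intron: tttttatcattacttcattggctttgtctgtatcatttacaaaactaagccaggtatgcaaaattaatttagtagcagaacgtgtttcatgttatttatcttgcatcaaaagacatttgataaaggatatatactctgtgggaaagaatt
Snrpn upstream site: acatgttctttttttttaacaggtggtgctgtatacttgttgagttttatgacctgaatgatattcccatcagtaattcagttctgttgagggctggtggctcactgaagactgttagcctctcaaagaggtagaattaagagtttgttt
Snrpn intron: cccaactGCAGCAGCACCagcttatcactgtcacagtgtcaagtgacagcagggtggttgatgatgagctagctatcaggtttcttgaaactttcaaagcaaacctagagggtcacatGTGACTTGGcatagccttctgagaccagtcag
Gpn1 start: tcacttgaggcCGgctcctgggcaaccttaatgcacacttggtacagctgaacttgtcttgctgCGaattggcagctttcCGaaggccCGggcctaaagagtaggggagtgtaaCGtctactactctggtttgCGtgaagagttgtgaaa
Rrm2 start: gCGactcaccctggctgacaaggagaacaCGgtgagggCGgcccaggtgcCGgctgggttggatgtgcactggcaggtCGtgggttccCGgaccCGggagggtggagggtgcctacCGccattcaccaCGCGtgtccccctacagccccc
Only the Snrpn intron held marked words. They were the overlapping B6 words GCAGCAGC and GCAGCACC and, on the other strand, the PWD words CAAGTCAC and CCAAGTCA. The Gpn1 window held 6 CG pairs and the Rrm2 window 10.

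The infertile map contained nearly all of the reciprocal map and many more weak sites. A reciprocal hotspot lay within 1000 bp of 17028 infertile hotspots, 72.3% (Wilson interval 71.7 to 72.9%), and an infertile hotspot lay within 1000 bp of 17004 reciprocal hotspots, 97.1% (96.8 to 97.3%). Joined pairs held 95.3% of the heat of the infertile map and 99.6% of that of the reciprocal map. The median distance between joined centres was 50 bp, and 87.8% lay within 200 bp. Heat agreed closely in rank, with a Spearman rho of 0.958 over pairs of these 2 libraries. The hottest pair, in the intron of Sorcs1, a sorting receptor gene, had heat 845.5 in the infertile map against 1019.6 in the reciprocal, with B6 shares of 0.996 and 0.994. The next hottest lay 47823 bp from Tacr3, with heat 702.7 in the infertile map against 917.6 in the reciprocal, in an intron of Zfc3h1 with 687.3 and 831.7, 9675 bp from 2310061N02Rik with 667.9 and 816.8, and in an intron of Tmc1, with 648.6 and 839.6. All 5 were cooler in the infertile map. The deposited heats summed to 1.50e+06 over the infertile map and 1.49e+06 over the reciprocal map, and how they were scaled is unknown, so total break numbers were not compared.

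**Figure D1:**
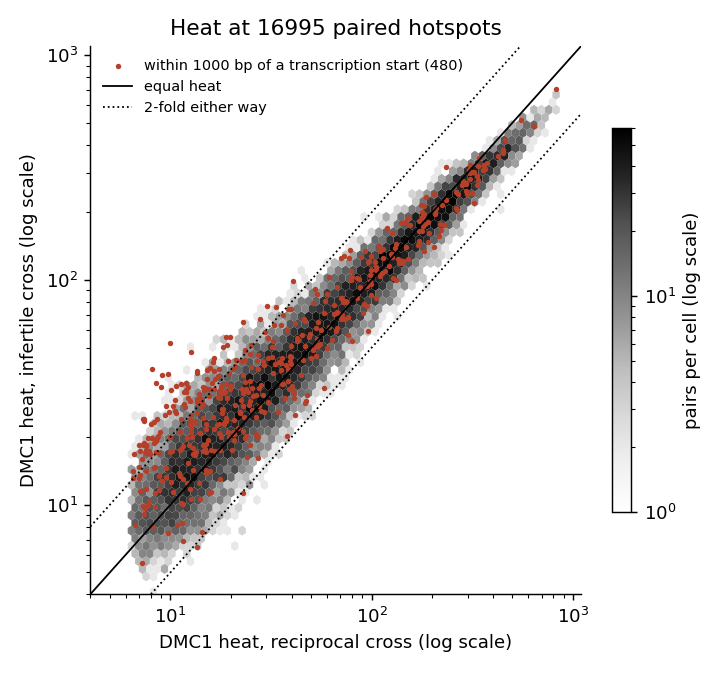
DMC1 heat of each of 16995 paired hotspots in the infertile map (y axis) and the reciprocal map (x axis), both on log scales, with the number of pairs per cell in grey and the 480 pairs near a transcription start in red. The cloud lies above the line of equal heat at low heat and below it at the hottest sites, and the red points lie above it where heat is low.

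Over pairs the spread of heat was narrower in the infertile map, with a standard deviation of log2 heat of 1.54 against 1.65 in the reciprocal. Over all pairs the median heat was 44.4 in the infertile map against 39.5 in the reciprocal, and the median log2 ratio, infertile over reciprocal, was 0.06 (0.05 to 0.07), with a standard deviation of 0.46. The hottest 10% of pairs held 37.2% of the infertile and 41.8% of the reciprocal heat. By decile of the mean log2 heat of both maps, the median log2 ratio was 0.05 in decile 1, 0.21 in decile 2, 0.23 in decile 3, 0.21 in decile 4, 0.20 in decile 5, 0.15 in decile 6, 0.10 in decile 7 and 0.02 in decile 8. It was below zero in the hottest deciles, -0.06 in decile 9 and -0.20 (-0.21 to -0.19) in decile 10, where median heat was 290.1 in the infertile map against 328.7 in the reciprocal. The top decile thus stood 0.25 below the bottom decile. This difference rests on how sites are ranked, and it was -0.01 with deciles by infertile heat and -0.58 with deciles by reciprocal heat. The weakest hotspot called had heat 4 in the infertile map against 6.4 in the reciprocal, which touches decile 1 most.

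After centring on the median ratio, 647 pairs or 3.81% lay past 2-fold, 496 (2.92%) higher and 151 (0.888%) lower in the infertile map. Higher calls were most frequent in deciles 2 to 4, with 102, 121 and 105, and decile 10 held 0 higher and 2 lower. Among pairs above the median of mean log2 heat, the highest ratios lay in an intron of the zinc-finger gene Zfp518a (chr19:40896330, heat 100.2 in the infertile map against 24.3 in the reciprocal), in an exon of Zfp974 (chr7:27924046, 108.8 and 29.8), in an intron of the calmodulin kinase gene Camk4 (chr18:33161386, 75.4 and 23.6), 226307 bp from Kap (chr6:133623544, 153.2 and 49.2) and in an intron of Anks1 (chr17:27968984, 79.8 and 26.5). Both zinc-finger sites sat in bins the authors marked as PRDM9-independent H3K4me3. The lowest ratios lay in the intron of Snrpn (chr7:60133632, heat 63 in the infertile map against 226.2 in the reciprocal), in an intron of the retinol dehydrogenase gene Rdh16 (chr10:127829393, 22.3 and 77.4), 567823 bp from Lrriq3 (chr3:155762103, 37.7 and 114.4), 338384 bp from Lrig3 (chr10:126353743, 50.3 and 141.1) and 348981 bp from Socs6 (chr18:88316243, 71.9 and 175.1). All 5 of the lowest were of B6 origin.

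The allele of origin separated the ratios. At 8032 pairs of PWD origin the median heat was 44.7 in the infertile map against 36.85 in the reciprocal, a median log2 ratio of 0.16 (0.15 to 0.17). At 6801 pairs of B6 origin the medians were 44.7 and 44, a median log2 ratio of -0.04 (-0.06 to -0.04). PWD-origin sites therefore stood 0.20 above B6-origin sites on the log2 scale, and they stood above them in all 10 deciles. In decile 4 the medians were 0.35 at PWD-origin and 0.08 at B6-origin sites, and in decile 10, where they lay closest, -0.16 and -0.22. The rescue cross, (PWDxB6)F1 with the humanized (Hum) Prdm9 allele in place of B6, was set beside the (B6xPWD)F1 with the Hum and PWD alleles, which are other libraries of the same directions of cross. In this rescue over Hum/PWD contrast PWD-origin sites were the lower class, with a median log2 ratio of -0.14 at 3948 pairs against 0.23 at 8673 pairs of Hum origin. Past 2-fold, 297 PWD-origin pairs were higher and 38 lower in the infertile map, against 73 and 94 of B6 origin. The H3K4me3 tables, with 2 ChIP replicates per cross, gave another view of the same sites. Without PRDM9-independent bins and bins of very high input, the ratio of ChIP to input at PWD-origin over that at B6-origin sites was 0.918 and 0.928 in the infertile and 0.907 and 0.907 in the reciprocal replicates, which did not overlap. The exact two-sided permutation test gave p = 0.33, the smallest that 2 against 2 replicates allow. Each cross has 1 H3K4me3 sample with these replicates as columns and 1 shared input. The protocol calls them biological replicates, and since it does not name separate animals, the p measures only the spread between these ChIPs.

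The enriched words differed between sites of PWD and B6 origin. Within 100 bases of the centre, 1 or more of the 10 PWD words (CCAAGTCA, CAAGTCAC, CCAGGTCA and others, on either strand) stood at 18.3% of paired PWD-origin and 7.05% of B6-origin sites. The 10 B6 words (GATGCTAC, GATGCTGC, GCAGCAGC and others) stood at 5.86% of PWD-origin and 24.9% of B6-origin sites. In 23966 windows of the same length spread over the autosomes the shares were 6.83% for PWD and 4.59% for B6 words. Words were taken from the homozygous maps, which hold most of these sites, so the shares describe the origin column and are no separate evidence for it.

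Sites broken on both parental chromosomes had a higher median heat ratio, infertile over reciprocal, than sites broken mainly on 1. The same order was found within PWD, B6 and undetermined origin. A site was called symmetric when its mean B6 share over both maps lay from 0.1 to 0.9. At 6805 symmetric pairs median heat was 37.6 in the infertile map against 31.1 in the reciprocal, a median log2 ratio of 0.16 (0.15 to 0.17). At 7999 asymmetric pairs the medians were 76.2 and 74.8, a median log2 ratio of -0.06 (-0.07 to -0.05). The order held in each of the 10 deciles, with 0.25 at symmetric and 0.14 at asymmetric sites in decile 4 and with -0.07 and -0.23 in decile 10. By origin and side, symmetric PWD-origin sites had a median log2 ratio of 0.25 and symmetric B6-origin sites 0.04. PWD-origin sites on the B6 chromosome had -0.01, and B6-origin sites on the PWD chromosome had -0.14. The smaller classes, on the chromosome of their own allele, each had a higher median than the other asymmetric class of their origin. The 683 PWD-origin sites on the PWD chromosome had 0.21 (0.16 to 0.25), close to symmetric PWD-origin and above symmetric B6-origin sites. The 566 B6-origin sites on the B6 chromosome had -0.08. The highest median was at 197 symmetric sites of undetermined origin, 0.76 (0.64 to 0.86), with median heat 29.2 in the infertile map against 14.6 in the reciprocal.

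**Figure D2:**
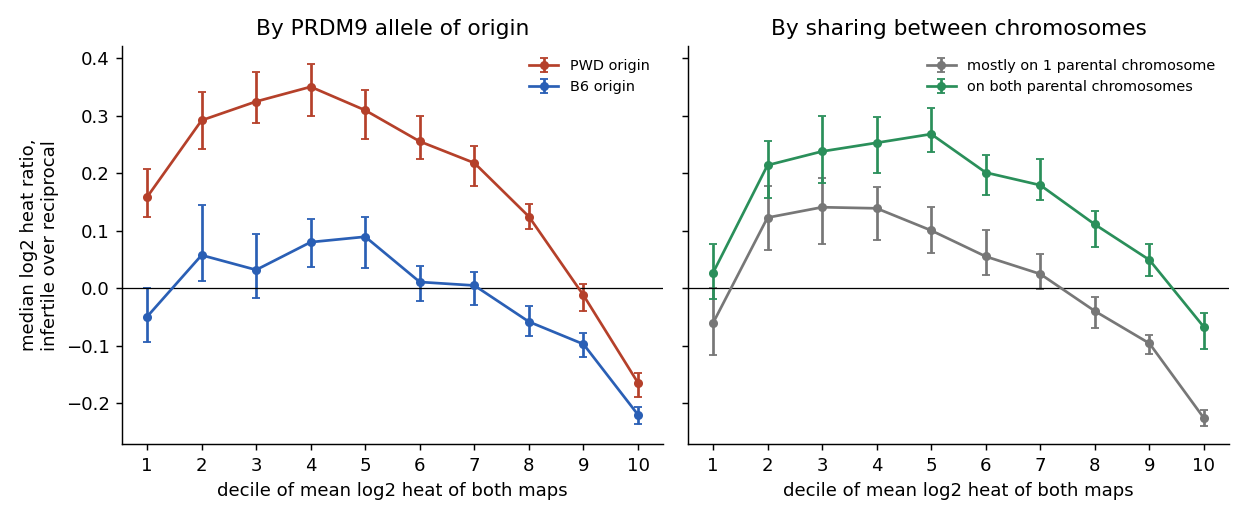
Median log2 heat ratio, infertile over reciprocal (y axis), in each decile of the mean log2 heat of both maps (x axis), for sites of PWD and B6 origin (left) and for symmetric and asymmetric sites (right). Bars are 95% intervals over sites; PWD-origin sites lie above B6-origin sites and symmetric above asymmetric sites in all deciles, and the lines turn down toward the hottest decile, where PWD-origin sites reach -0.16 and B6-origin sites -0.22.

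Autosomes differed in the ratio, with a range of 0.25 on the log2 scale between the highest and the lowest median. The highest median log2 ratios, infertile over reciprocal, were 0.19 (0.16 to 0.24) on chromosome 16, 0.19 (0.15 to 0.23) on chromosome 12 and 0.13 (0.08 to 0.18) on chromosome 17. The lowest were -0.06 (-0.10 to -0.02) on chromosome 9, -0.05 (-0.08 to -0.02) on chromosome 4 and -0.04 on chromosome 7. On chromosome 16 median heat was 53.4 in the infertile map against 43.5 in the reciprocal, and on chromosome 9 it was 37.2 and 36.8. PWD-origin sites stood above B6-origin sites on all 19 autosomes, with 0.30 and 0.11 on chromosome 16 and 0.08 and -0.18 on chromosome 9. The rescue over Hum/PWD contrast was also taken by autosome. There chromosome 16 ranked first (0.25) and chromosome 9 last (0.01), chromosome 12 was 3 (0.22) and chromosome 4 was 18 (0.04) of 19. Chromosome 17 was 6 (0.13), and chromosome 7, among the lowest above, was 7 (0.12). Over the 19 autosomes the medians of both contrasts had a Spearman rho of 0.54, given as a description.

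Hotspots near chromosome ends had lower heat ratios, infertile over reciprocal, than those between. Mouse autosomes carry the centromere at the end where coordinates begin. In the 10% of each autosome next to the centromere the median log2 ratio was -0.14 (-0.17 to -0.10), in the most distal 10% it was -0.08 (-0.11 to -0.05), and in the 8 segments of 10% between it ran from 0.01 to 0.14. Each end segment lay below the middle of its own chromosome on 18 of 19 autosomes. At the 3025 pairs of the end segments median heat was 38.5 in the infertile map against 38.9 in the reciprocal, and at the 13970 other pairs it was 45.7 and 39.6. In both origins the end segments lay below the segments between, with -0.08 at PWD-origin and -0.24 at B6-origin sites of the centromeric segment, and 0.03 and -0.17 in the distal segment, so PWD-origin sites of the distal segment were not cooler in the infertile map. Of 5 Mb bins with at least 20 pairs, the lowest lay at the distal end of chromosome 14 (from 120000001, 22 pairs, -0.64) and near that of chromosome 10 (125000001 to 130000000, 28 pairs, -0.60). Of the 6 lowest bins 5 lay no more than 5.04 Mb from a distal end and the other was the first of chromosome 18, and the 6 highest all lay at least 35.1 Mb from the distal end. In the rescue over Hum/PWD contrast the centromeric segment had 0.10, the distal segment 0.05 and the segments between 0.09 to 0.19. H3K4me3 was compared in the same segments. The ratio of ChIP to input in the end segments over that in the middle was 0.881 and 0.874 in the infertile and 0.879 and 0.875 in the reciprocal replicates, which overlapped (exact two-sided permutation test, p = 1).

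**Figure D3:**
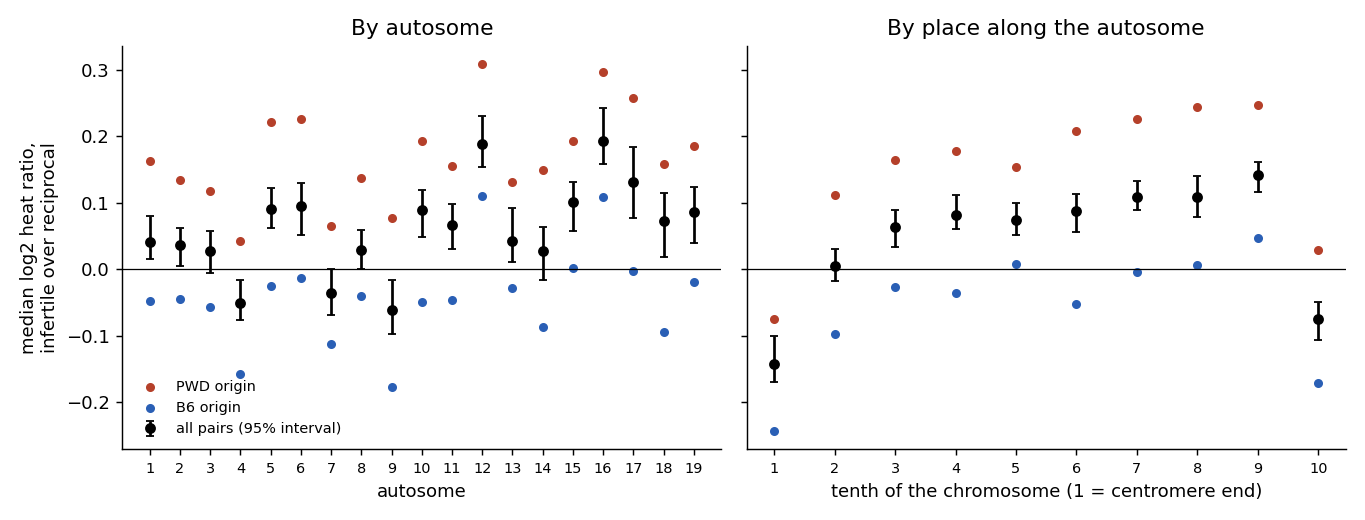
Median log2 heat ratio, infertile over reciprocal (y axis), by autosome (left) and by segment of 10% of the autosome counted from the centromere (right), for all pairs with 95% intervals over sites (black) and for PWD-origin (red) and B6-origin (blue) sites. Chromosomes 12 and 16 stand highest at 0.19, and both end segments lie below zero.

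The B6 share agreed between the crosses almost everywhere. Both maps gave a share at 14804 pairs, with a Spearman rho of 0.956 and a median difference, infertile minus reciprocal, of -0.002. Symmetric sites were 46.9% in the infertile map against 45.0% in the reciprocal at these same pairs, and 6331 pairs were symmetric in both, 618 in the infertile map alone and 336 in the reciprocal map alone. The median absolute difference shrank with heat, 0.077 in decile 1, 0.037 in decile 5 and 0.004 in decile 10. In decile 1, 64.8% of infertile and 56.4% of reciprocal shares were symmetric, and in decile 10, 14.8% and 14.6%. A difference of 0.2 or more was found at 614 pairs or 4.15%, 266 with the higher share in the infertile map against 348 in the reciprocal. Above the median of mean log2 heat it was 64 of 8143 pairs or 0.786%. The numbers of reads behind the DMC1 shares are not given, so these differences carry no error of their own. Over 7976 pairs with at least 10 informative H3K4me3 reads in both crosses, the H3K4me3 share had a rho of 0.906 between crosses. It was symmetric at 48.7% in the infertile table against 46.9% in the reciprocal. At these 7976 pairs the DMC1 share was symmetric less often, at 38.2% in the infertile map against 37.2% in the reciprocal. DMC1 and H3K4me3 shares of 1 cross had a rho of 0.940 in the infertile cross against 0.898 in the reciprocal.

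At 5 pairs the B6 share differed by 0.5 or more, and all 5 were higher in the infertile map. The largest difference was 0.933, at the site upstream of Snrpn (chr7:60744687), with a share of 0.962 in the infertile map against 0.029 in the reciprocal and almost equal heat, 49.5 and 50.3. Next were a site on the same interval 884056 bp from Ndn (chr7:61462513, 0.918 in the infertile map against 0.048 in the reciprocal, heat 17 and 23.1) and a site 44597 bp from the chemokine receptor gene Cxcr4 (chr1:128543602, 0.923 and 0.2, heat 58.6 and 45.9). The last were 36631 bp from Far1 (chr7:113608142, 0.897 and 0.385) and in an intron of the glutamate receptor gene Grik2 (chr10:49212214, 0.588 and 0.083), both with heat under 14 in both maps. The H3K4me3 share near Cxcr4 was 0.418 in the infertile table against 0.531 in the reciprocal. Other pairs of the hotter sites with a higher share in the infertile map lay 11875 bp from Prlhr (0.727 and 0.375), 66 bp from Cnot2 (0.774 and 0.425) and in an intron of Pak6 (0.656 and 0.314). The largest differences the other way were in an intron of Gm6667 (0.273 in the infertile map against 0.667 in the reciprocal), in an intron of Rnf144a (0.364 and 0.75), 244559 bp from Slc30a10 (0.524 and 0.909), 15222 bp from Cd36 (0.395 and 0.769) and 9777 bp from Svs3a (0.479 and 0.8).

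The interval between Ube3a and Ndn on chromosome 7 (59311536 to 62346569) was examined because both sites that moved from the B6 to the PWD chromosome lie in it, so it was chosen after its values were seen. It is the mouse counterpart of the human Prader-Willi and Angelman region. Snrpn, inside it, and Ndn, at its edge, are imprinted genes active on the chromosome from the father, and Ube3a is silenced on that chromosome in neurons. In the infertile cross the father's chromosome is B6, and in the reciprocal cross it is PWD. Of 12 infertile hotspots in the interval 10 had a B6 share, and 9 of these were above 0.5, with a median of 0.918. Of 11 reciprocal hotspots 4 had a share, 0.684, 0.002, 0.029 and 0.048, so 1 was above 0.5. These counts mix origins. The infertile shares of 0.977, 0.667, 0.917 and 0.9 were at PWD-origin sites, and all 4 reciprocal shares were at B6-origin sites. Over all pairs the median infertile share was 0.73 at PWD-origin and 0.246 at B6-origin sites, so part of this contrast can follow from origin. Only 4 pairs had a share in both maps. The pair inside Snrpn near its 3′ end (chr7:59985242) leaned to the B6 chromosome in both, with 0.824 in the infertile cross and 0.684 in the reciprocal cross.

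Heat also differed in the interval. In the Snrpn intron (chr7:60133632) the break lay on the PWD chromosome in both crosses, with B6 shares of 0.042 in the infertile map against 0.002 in the reciprocal, and heat was 63 in the infertile cross, where that chromosome is maternal, against 226.2 in the reciprocal cross, where it is paternal. At chr7:60529761 the infertile share was 0.977 and the reciprocal map gave none, and heat was 63.1 in the infertile cross against 20.6 in the reciprocal. Sites at chr7:60403528 and chr7:60508351 had infertile shares of 1 and 0.988 with nearly equal heat in both crosses, 41.6 in the infertile map against 45.3 in the reciprocal at the first position, and 47.6 and 51.4 at the other. Hotspots at chr7:60634921, chr7:60663162, chr7:60762867 and chr7:60770553 were found in the reciprocal map alone, with heat 19.3, 25, 26.5 and 80.8 and no B6 share. The last 3 were also in the Hum/PWD map, which has a PWD father as well, with heat 26.5, 31.2 and 83.4, and not in the rescue map.

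The crosses with the Hum allele, which share no DMC1 library with these maps, gave 4 pairs in the interval. At chr7:61932770 the B6 share was 0.953 in the rescue cross, with a B6 father, and 0.186 in the Hum/PWD cross, with a PWD father, at heat 134 and 117.9. At chr7:61088150 the break lay on the PWD chromosome in both, with shares of 0 and 0.007, and heat was 29.9 in the rescue cross against 115.3 in the other. At chr7:60530004 and chr7:61623432 heat was 52.2 and 54.3 in the rescue against 14.9 and 14.5 in the Hum/PWD cross. The B6 shares at chr7:60530004 were 0.964 in the rescue cross against 0.865 in the other, so this site stayed on the B6 chromosome with a PWD father. At chr7:61623432 neither map gave a share. The (B6xCAST)F1 map, also with a B6 mother, was taken over the same interval. It had 14 hotspots, 9 of them with a B6 share. Their median was 0.5, with 3 above 0.5 and 1 below 0.1, so they did not lean to the father's chromosome as the reciprocal shares mostly did. The other parent there is CAST, so these shares set B6 against CAST chromosomes. H3K4me3 at the upstream Snrpn site had a B6 share of 0.859 from 9.74 informative reads in the infertile and 0.260 from 12.5 in the reciprocal table, the first under the minimum of 10 used above. At chr7:61462513 it was 1 from 9.16 reads in the infertile and 1 from 0.758 in the reciprocal table, both under this minimum. At chr7:60529761 it was 1 from 39.9 reads in the infertile and 1 from 16.5 in the reciprocal table, and in the Snrpn intron it was 0.028 from 43.4 in the infertile and 0.207 from 41.0 in the reciprocal table. Within 2 Mb on either side 1 of 20 pairs differed by 0.2 or more in B6 share, by 0.313. Around 27 other imprinted genes, extended by 500000 bp, 5 of 162 pairs or 3.09% differed by 0.2 or more, close to the 4.15% over all pairs, and the largest difference was 0.305. This gene list was also made after the values were seen.

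**Figure D4:**
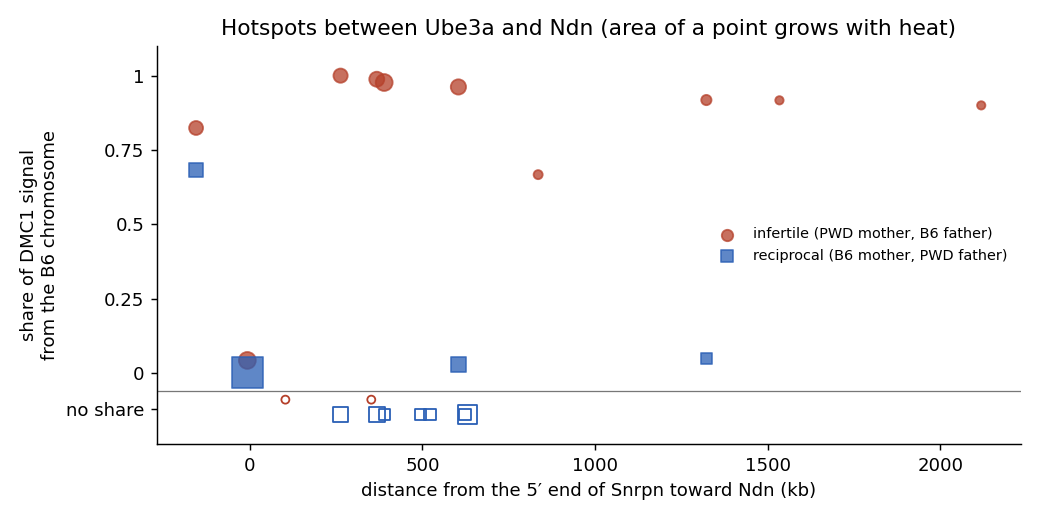
Share of DMC1 signal from the B6 chromosome (y axis) against distance from the 5′ end of Snrpn toward Ndn in kb (x axis) for 12 infertile (red circles) and 11 reciprocal (blue squares) hotspots between Ube3a and Ndn, with hotspots that have no share below the line and the area of a point growing with heat. Infertile shares lie mostly near 1 and reciprocal shares mostly near 0, apart from the site in the Snrpn intron, near 0 in both, and the leftmost site.

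Hotspots found in the infertile map alone were weak and often at gene starts. They numbered 6526, with a median heat of 9.2 against 44.4 at paired sites, and carried 4.61% of the heat. The weakest hotspot called had lower heat in the infertile map, 4 against 6.4, and the part of the calling threshold in the size of this class was not tested. Of these, 1950 or 29.9% (28.8 to 31.0%) lay within 1000 bp of the start of a protein-coding transcript, against 2.82% of paired and 2.73% of reciprocal-only sites. In bins marked as PRDM9-independent H3K4me3 lay 39.1% of infertile-only and 7.28% of paired sites. Shares were symmetric at 83.3% of the 5176 infertile-only sites that had one and at 48.8% of the 15854 paired sites of the infertile map that had one. These classes differ in heat, and in decile 1 of pairs, with median infertile heat 9.55, infertile shares were symmetric at 64.8%. Among infertile-only sites they were symmetric at 97.97% near starts and 76.6% elsewhere. The summed ratio of H3K4me3 ChIP to input was 14.7 and 14.3 in the 2 replicates at infertile-only sites and 1.84 and 1.94 at paired sites of the infertile cross. The excess lay at the infertile-only sites near starts, with 28.0 and 27.3. At the other 4576 infertile-only sites the ratio was 1.88 and 1.99, close to that of paired sites. Without PRDM9-independent bins the summed ratio was 0.664 and 0.764 at infertile-only and 1.37 and 1.48 at paired sites, so without those bins infertile-only sites were the lower class.

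The share at starts was also compared at equal heat. Among hotspots of equal infertile heat, those near a start were found less often in the reciprocal map. At heat 20 to 30, 88 of 252 hotspots near a start were found, 34.9% (29.3 to 41.0%), against 2079 of 2216 elsewhere, 93.8% (92.7 to 94.7%). At heat 10 to 15 the shares were 5.93% and 59.1%, at 15 to 20 they were 14.5% and 82.6%, and at 30 to 50 they were 78.3% and 98.9%. At heat 50 to 100 all 83 near a start were found, and at 100 or more all 113. Pairs near a start were also hotter in the infertile map. At 480 such pairs median heat was 37.85 in the infertile map against 25.4 in the reciprocal, a median log2 ratio of 0.31 (0.25 to 0.36), against 0.05 at other pairs, and 17.9% were higher by 2-fold or more, where the background is 2.92%. Pairs with a low reciprocal heat could not be seen, so this ratio covers only starts that were called in both.

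**Figure D5:**
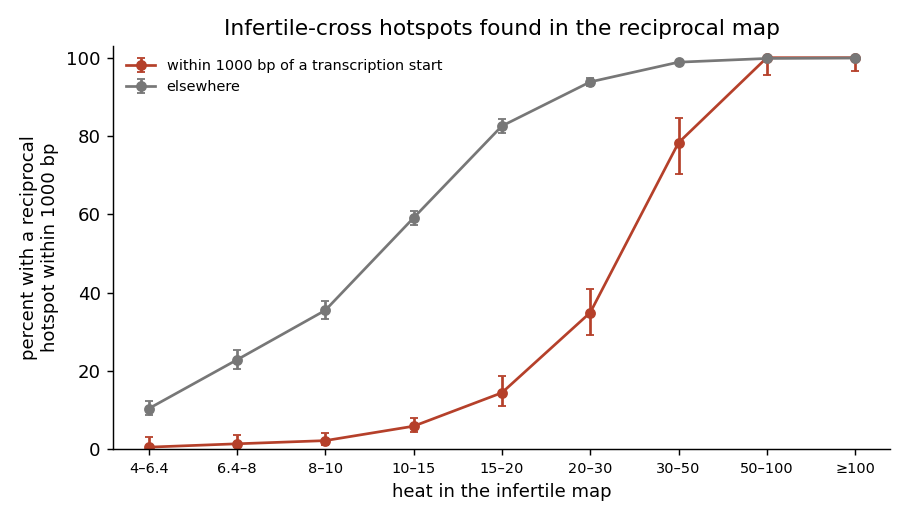
Percent of infertile-cross hotspots with a reciprocal hotspot within 1000 bp (y axis) by their heat in the infertile map (x axis), near a protein-coding transcription start (red) and elsewhere (grey), with Wilson 95% intervals. At heat 20 to 30 it was 34.9% near starts and 93.8% elsewhere, and from 50 on the lines meet.

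The starts found in the infertile map alone were CG-rich promoters with strong H3K4me3. Their median GC content was 63.2% in the 201 bases at the centre, against 44.3% at other infertile-only and 43.8% at paired sites. At paired sites near a start it was 50.2%. In PRDM9-independent bins lay 97.1% of the class and 52.7% of paired sites near a start. The hottest was at Gpn1 (chr5:31495109, heat 48.9, B6 share 0.442), whose protein helps assemble RNA polymerase II, with 1362 and 1402 ChIP and 75 input fragments. Then came Rrm2 (chr12:24708490, 41.8, 0.458), a subunit of ribonucleotide reductase, Cpeb3 (chr19:37175012, 41.3, 0.5), a regulator of mRNA translation, Akap8 (chr17:32320417, 41, 0.409), an anchoring protein of the nucleus, and the start of the centrin gene Cetn3 (chr13:81782844, 37.9, 0.164). All 5 lay within 356 bp of a start and in PRDM9-independent bins. The B6 share was symmetric at 97.97% of the 1627 sites of the class that had one, and the authors left the origin undetermined at 91.8% of all 1950. PWD words stood at 5.79% and B6 words at 9.33% of these sites, against 6.83% and 4.59% of windows over the autosomes and 10.3% and 9.05% of other infertile-only sites. Within 1000 bp of a rescue hotspot lay 0.974% of the class, against 3.17% of other infertile-only and 29.5% of paired sites. The Hum/PWD map, of the opposite direction of cross, held 1.08% of the class, against 43.3% of paired sites. In the PWD/PWD map 27.4% of the class were found, against 42.1% of paired sites and 53.3% of paired sites near a start. The B6/B6 map held 1.54% of the class, against 34.4% of paired sites.

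The other 4576 infertile-only sites mostly had an allele of origin. By the authors' column 50.7% were of PWD and 27.1% of B6 origin, against 47.7% and 40.5% of paired sites. In the PWD/PWD map 47.8% were found and in the B6/B6 map 24.5%, against 42.1% and 34.4% of paired sites. Their median heat was 8.6, under the median of infertile-only starts at 10.7. Chromosome 19 had the highest share of infertile-only sites, 35.8% (32.6 to 39.1%), with 2.13 start sites per Mb, and chromosome 9 the lowest, 21.5%, with 0.361 per Mb. Per 100 protein-coding starts the infertile-only start sites numbered 7.70 on chromosome 18, 7.16 on chromosome 16 and 7.14 on chromosome 19, but 1.38 on chromosome 9, 1.93 on chromosome 8 and 2.04 on chromosome 7. The hottest infertile-only sites of all had a reciprocal centre just beyond the limit, from 1060 to 1370 bp away. They lay in introns of Ptprd (chr4:78170752, heat 158), Ptprg (chr14:12164480, 140.7), Elac2 (chr11:64996713, 117.4) and Bag4 (chr8:25777808, 103.3) and in a coding exon of the lipid-droplet gene Plin4 (chr17:56104181, 78.9). Of the infertile-only sites 57 had a reciprocal centre within 1500 bp.

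Reciprocal-only sites were few and weak, and their share at gene starts was close to that of paired sites. The 512 sites had a median heat of 8.7 and carried 0.408% of the reciprocal heat. Of these 14 lay near a start, 2.73% (1.64 to 4.54%), and 6.64% in PRDM9-independent bins. For paired sites of the reciprocal map the shares were 2.76% and 7.26%. By origin 35.9% were PWD and 48.8% B6, whereas paired sites of the reciprocal map were 47.8% PWD and 40.5% B6. The B6 share was symmetric at 57.7% of the 286 that had one. At heat 20 or more there were 370 infertile-only sites, 51.9% near a start, and 27 reciprocal-only sites, 0 near a start, which allows a share of up to 12.5% (Wilson). The hottest reciprocal-only sites were mostly split from an infertile centre by the pairing limit. They lay in a UTR of the RNA polymerase III gene Polr3e (chr7:120947272, heat 287.8, nearest infertile centre 1178 bp away), in introns of Yme1l1 (chr2:23161115, 183.6, 1006 bp) and Elac2 (chr11:64995553, 164.5, 1160 bp) and 29209 bp from Il6 (chr5:29983905, 69.7, 1057 bp). The site in the Snrpn to Ndn interval (chr7:60770553, 80.8) was the exception among the 5 hottest, with the nearest infertile centre 25866 bp away. Near starts the hottest were at C1qtnf12 (14.4), Sorbs3 (13.4), 1110059G10Rik (13.3), Tgm4 (12.3) and Jkamp (11.9).

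Genes of meiosis were among the starts found in the infertile map alone. Of 40 autosomal genes listed for meiotic recombination and synapsis, 11 or 27.5% had an infertile-only hotspot within 1000 bp of a start, against 2131 of 20733 autosomal genes, 10.3%. They included Hells (heat 31.4), a chromatin remodeller that works with PRDM9, the crossover factors Ccnb1ip1 (18.7) and Rnf212 (8.8 and 11.2), Mei4 (13.8), needed for break formation, and Syce1 (15.8) of the synaptonemal complex. The others were Gm960, Hormad2, Meiob, Stag3, Syce3 and Sycp3. A reciprocal hotspot lay at the starts of Hfm1 and Zcwpw1, 5% of the list, against 2.40% of all genes. At Zcwpw1, a reader of PRDM9 marks, heat was 55.9 in the infertile map against 19 in the reciprocal, and at Hfm1, a crossover helicase, it was 16 and 7.2. Of 18 autosomal housekeeping genes Sdha alone had an infertile-only site at a start (15.1), and none had a reciprocal hotspot there. Both lists are small and were chosen with earlier results of these data known, so nothing is called particular to them.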

How the data were processed

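DMC1 ChIP-seq hotspot lists and H3K4me3 ChIP-seq values over 1 kb bins from mouse testis were used as deposited, in mm10 coordinates. The submitters' processing notes name BWA for DMC1 and BWA, SAMtools and bedtools for H3K4me3, and no hotspot caller is named there. The authors deposited DMC1 heat as a relative signal per hotspot, per the file headers, and neither its formula nor the depth behind it was known here. The authors deposited the B6 share as a fraction with no read numbers. Per the file headers, the H3K4me3 tables hold fragment counts for 2 ChIP replicates and 1 input, the enrichment ratio to local background by maximum likelihood, the p-value of a likelihood ratio test (not used in a result), the B6 fraction, a score giving the informative reads left after background subtraction, and a mark for bins that overlap likely PRDM9-independent peaks. The B6/B6 map was re-analysed by the authors from a library of other submitters, and it is no sample of this series.

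Centres were paired when mutually nearest within 1000 bp. Log2 heat ratios are infertile over reciprocal, and calls past 2-fold were made after centring on their median. A start is that of any protein-coding transcript of GENCODE M21 on GRCm38, within 1000 bp. H3K4me3 ratios are summed ChIP over summed input fragments. Intervals are Wilson or, for medians, rank-based at 95%, and cover counting over sites only. Named sites are the 5 hottest pairs, the 5 highest and lowest heat ratios and B6 share differences among pairs above the median of mean log2 heat, and the 5 hottest sites found in 1 direction, in all and near starts, without bins of input over 10 times the median. Enriched words came from the 6000 hottest hotspots of each homozygous map, comparing 100 bases each side of the centre with flank windows of equal length. The sites, lists and members were chosen with earlier results of these data known. Pairing was tested by joining the 23554 infertile hotspots to 3 simulated maps, each a random part of them with shifted centres and heats. The percent found erred by at most 0.102 points and the median log2 ratio by 0.006. The simulated maps had no sites of their own and lost sites regardless of heat, so losses at low heat were not tested. Scripts ran in Python 3.11.15 with pandas 2.3.3, SciPy 1.17.1, NumPy 2.4.6 and, for plots, Matplotlib 3.10.9. Alternatives changed the pairing limit, heat minimum, scaling, decile ranking, thresholds and bins used.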

Additional observations from a re-analysis of the deposited data

How the results depend on the processing

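No paired analysis was possible because each cross has 1 DMC1 library, and the heat scale, the reads behind the B6 share and the spread between mice are unknown. Of 90 alternatives over 19 results, 65 kept the value within its interval or 1.5 times the count, 23 moved it and 2 turned it round; the cause was not tested. Those on the origin gap, the chromosome ends, recovery by heat, share differences of 0.7 or more, and single origins were chosen after seeing the data. Turned round were the median log2 heat ratio in the hotter pairs, -0.026 against 0.06, and the infertile-only over paired H3K4me3 ratio without PRDM9-independent bins at infertile-only sites, 0.377 against 7.68. That ratio was 5.71 without bins of high input, and 7.40 to 7.95 leaving out either ChIP replicate. The reciprocal hotspots found in the infertile map were 96.7% with a shorter pairing limit and 96.5% from the higher lowest heat on, where infertile hotspots found were 75.7% and infertile-only sites near a start 32.7%. With 2000 bp to a start that share was 31.9%, and 42.3% of start hotspots of heat 20 to 30 were found. In the hotter pairs 1.19% lay past 2-fold, rho of heat was 0.940, the top decile stood at -0.39 relative to the bottom and PWD origin 0.16 above B6 origin. The decile difference was -0.014 by infertile and -0.58 by reciprocal heat, -0.32 in PWD-origin and -0.18 in B6-origin pairs. The median ratio was 0.11 with heat divided by its sum and 0.045 without PRDM9-independent bins. Pairs past the fold were 4.30% without centring and 17.9% at 1.5-fold, and pairs past a B6 share difference of 0.1 were 16.1%. With symmetry from 0.3 to 0.7 asymmetric minus symmetric sites gave -0.19 and the symmetric percent differed by 2.60 points, and in B6-origin pairs asymmetric minus symmetric sites gave -0.17.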
